A study of Mus musculus with 30 samples.

Results

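The comparison described here sets the amygdala of mice that were immobilized and later fear conditioned (Immo+FC) against the amygdala of mice left in the home cage (HC). Its members are the 4 Immo+FC and 6 HC amygdala libraries among the 30 libraries analysed of the study, and 13534 of the 23303 gene entries in the deposited table, those that averaged 0.5 FPKM or more in these 10 libraries. FPKM is a read count scaled to transcript length and library depth. Micall2, at a mean of 0.5003 FPKM, was the entry just inside this minimum, and BC049715, at 0.4999 FPKM, the entry just outside it. All mice were male C57BL/6J of 2 to 3 months, and each library came from the pooled amygdalae of 2 mice. Immo+FC mice had their limbs fixed to a board for 2 h, were trained 1 week later with tones paired to foot shocks, and were killed 2 h after training. HC mice were handled and taken out of the vivarium but met neither procedure. Each group had 6 pools by design, and 2 of the Immo+FC amygdala pools were not analysed here. An FC group of 6 libraries, conditioned without immobilization, shares the fit and is given beside the named genes. Immo+FC differs from HC by both immobilization and conditioning, so this comparison alone cannot tell their parts apart. FC differs from Immo+FC by the immobilization. A group with immobilization alone is not part of the design, so immobilization without conditioning cannot be assessed. The question the comparison addresses is which transcripts differ between a stressed and then conditioned amygdala and that of handled mice that were neither immobilized nor conditioned.

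The basolateral amygdala links a neutral cue to a painful event, and neurons that take part in such learning transcribe immediate early genes and later the genes of protein synthesis and folding. Restraint and foot shock also raise corticosterone, which acts on the brain through the glucocorticoid receptor, a transcription factor that switches on a known set of genes in neurons, astrocytes and vessels. When secretory load rises, cells answer with the unfolded protein response, in which the factors Atf6, Xbp1 and Atf4 induce the chaperones of the endoplasmic reticulum (ER).

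The 10 libraries held 23148078 to 28008242 sequences, with 91.3 to 92.3% mapped to a single place, and any 2 of the 16 amygdala libraries correlated at 0.965 to 0.991. The share of sequences above a quality of Q30 was 88.0 to 88.1% in Immo+FC and 87.6 to 87.8% in HC, and the mean mapped length was 99.61 to 99.63 bases against 99.57 to 99.6, without overlap in either. The part of these differences in the results was not tested. The sources used here do not give the lane of each pool. All 14 markers of glutamatergic neurons of the basolateral nucleus and cortex passed the minimum, summing to 1074 to 1324 FPKM in Immo+FC and 1239 to 1374 FPKM in HC. The 6 FC libraries, which share the fit, stood apart in 9 nuclear and imprinted noncoding RNAs, with scores (mean log2 values centred on all libraries) of −1.01 to −0.84 against 0.29 to 0.65 in Immo+FC and 0.41 to 0.72 in HC, and the part of this in the differences from FC was not tested. The 19 choroid plexus markers, which belong to tissue beside the punch, summed to 167.6 to 1098 FPKM in Immo+FC and 39.9 to 1254 FPKM in HC, with Immo+FC libraries 1 to 3 and HC libraries 1 to 3 at the high end. All 19 had positive log2 fold changes (median 1.3), and none passed the test. The 16 tested markers of striatum and central amygdala had a median of 0.40, with 0 past the test. The 17 listed striatal markers with deposited values summed to 375 to 792 FPKM in Immo+FC and 281 to 725 FPKM in HC. The ranges of the groups overlap for both tissues. Their part in the results was not tested beyond the fits with their scores as covariates, given with the counts.

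**Figure D1:**
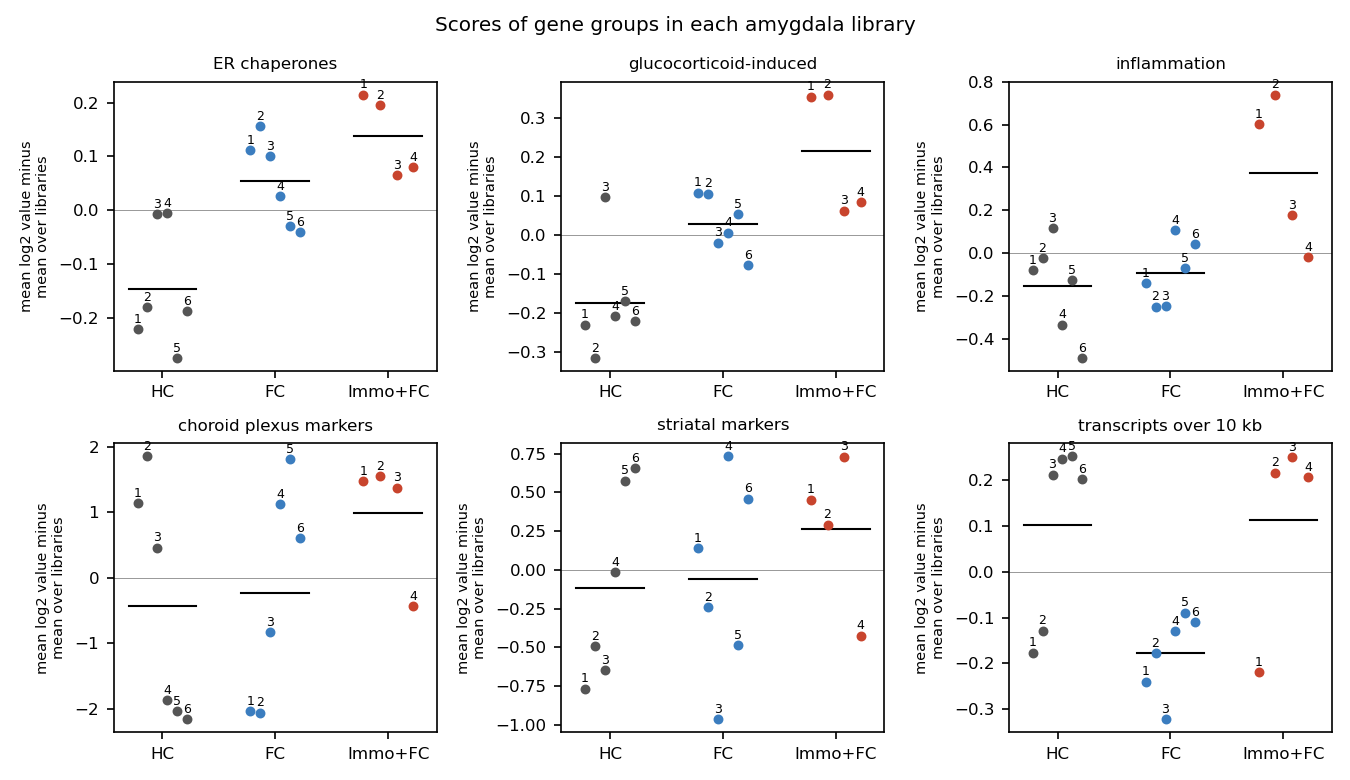
Scores of 6 lists of genes by library, for 6 HC, 6 FC and 4 Immo+FC pools of amygdala. A score (vertical axis) averages log2(FPKM + 0.1) over the tested genes of a list after each gene is centred on the 16 libraries. Each numbered dot stands for 1 library and each bar for the mean of its group. The ER chaperone score is −0.27 to −0.01 in HC and 0.07 to 0.21 in Immo+FC, while the choroid plexus score ranges from −2.15 to 1.85 within HC alone.

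A set of 27 genes differed between Immo+FC and HC amygdala, 16 higher and 11 lower. The higher genes were led by Rasd1, a Ras-like protein induced by dexamethasone, by the ER chaperones Hspa5 and Pdia4, by the glucocorticoid-induced genes Sult1a1, Plin4 and Tsc22d3, and by the clock gene Per2. Among the lower genes were Cirbp, an RNA-binding protein induced by mild cold, and P2ry12, the ADP receptor of microglia. Values were tested as log2(FPKM + 0.1) with limma in 1 fit of the 16 amygdala libraries, which understates the change of low genes, and the threshold was a two-sided Benjamini-Hochberg adjusted p under 0.05. The 27 genes are 0.199% of those tested, with 0.118% called higher and 0.0813% called lower. At an unadjusted (nominal) p under 0.05, 726 genes were higher (5.36%) and 1049 lower (7.75%), and the median log2 fold change of all genes was −0.01. The Immo+FC and HC libraries did not overlap at all for 347 genes (2.56%), 152 higher and 195 lower, and the 27 are among them. Adjusted p-values of the 27 ran from 0.0206 to 0.0495 in limma, and the next genes, AI854517 and Jak2, both had 0.0533. Median-ratio scaling of the libraries gave 18 higher and 6 lower genes, and 899 higher and 853 lower at a nominal p under 0.05.

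The number past the threshold depended on single libraries. In limma it was 0 without HC library 2 or 5 or Immo+FC library 1, 2 or 3, where 1413 to 1809 genes had a nominal p under 0.05. It was 3 without HC library 1, 4 without HC library 6, 5 without FC library 4, 7 without FC library 3 and 15 without FC library 2. It was 82 without HC library 3 and 148 without Immo+FC library 4. A fit of the 10 Immo+FC and HC libraries alone called 0 genes with 1438 at a nominal p under 0.05, and one with the choroid plexus and striatal scores as covariates called 1, which is not among the 27. With the choroid plexus score alone 47 genes passed, 26 of the 27 among them, and with the striatal score alone 12, all among the 27. Each of the 27 genes kept its direction and a nominal p under 0.05 in all 32 alternative fits in which it was tested. The 27 were chosen by these same values and their groups do not overlap. Leaving out libraries could therefore not change their direction, and the agreement is a description. Because the count depended on single libraries, the biology below is given gene by gene with the values of each library.

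**Figure D2:**
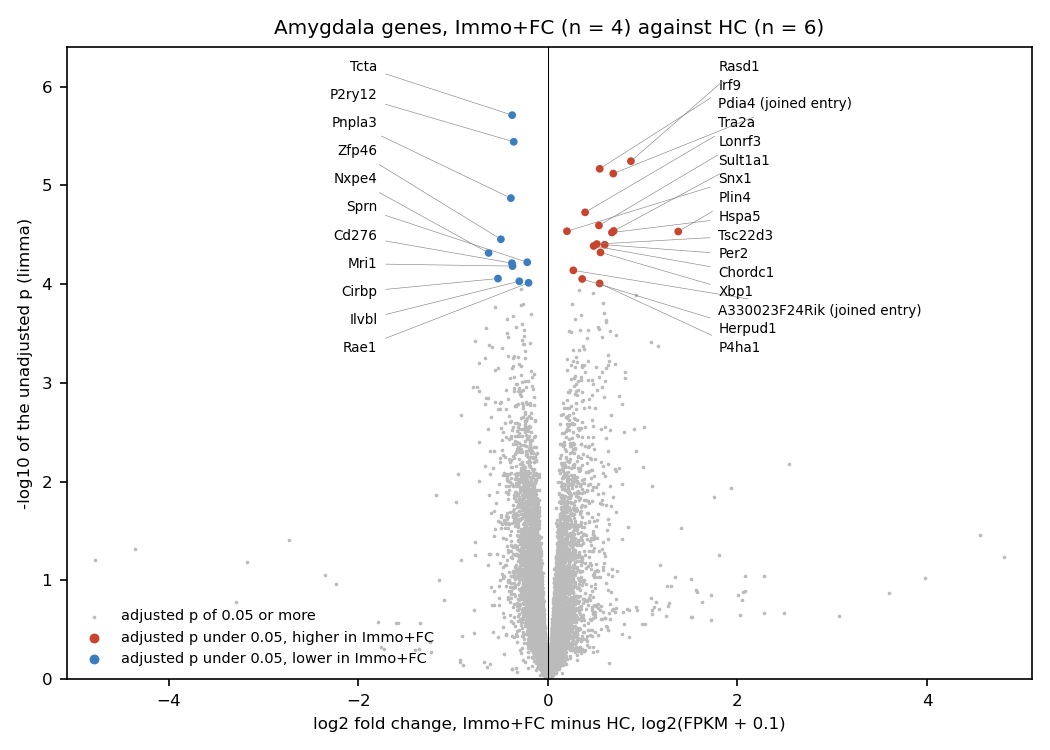
All 13534 tested genes of the amygdala, Immo+FC (n = 4 libraries) against HC (n = 6 libraries). The x axis is the log2 fold change on the log2(FPKM + 0.1) scale and the y axis is −log10 of limma's unadjusted p. The 16 red dots are genes past an adjusted p of 0.05 with higher values in Immo+FC and the 11 blue dots those with lower values.

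Leading genes of protein folding in the ER were higher in Immo+FC, and 4 of them passed the test. Hspa5, the main ER chaperone (also called BiP), lies on chromosome 2 from 34771970 to 34777547 of GRCm38. It was at 152, 154, 132 and 135 FPKM in the 4 Immo+FC libraries and at 70.7 to 113 FPKM (median 84.5) in the 6 HC libraries. The groups did not overlap, and the log2 fold change was 0.68 (SE 0.12, adjusted p = 0.0339, limma), from 90.8 ± 18.3 (SD, n = 6) to 143 ± 11.3 (SD, n = 4) FPKM. Pdia4, a disulfide isomerase of the ER that shares its table entry with the small RNA Mir704, was at 22, 21.7, 19.8 and 17.4 FPKM in Immo+FC and 10.2 to 15.5 FPKM (median 11.8) in HC. Its log2 fold change was 0.69 (SE 0.11, adjusted p = 0.0206, limma), and again each Immo+FC value lay above each HC value. Xbp1, the transcription factor that the sensor Ire1 activates by splicing, was at 43.8, 38.8, 32.2 and 34.6 FPKM against 21.7 to 29 FPKM (median 24.7), a log2 fold change of 0.55 (SE 0.10, adjusted p = 0.0364). Herpud1, which recruits proteins to ER-associated degradation, was at 28.5, 27.2, 24.4 and 22.9 FPKM against 18.7 to 22.6 FPKM (median 19.4), a log2 fold change of 0.36 (SE 0.07, adjusted p = 0.0495). Immo+FC library 4 exceeded the highest HC library by only a small margin for Herpud1. Sdf2l1, a partner of the ER chaperone cycle that the study names, had the highest fold of the list without passing. It was at 16.5, 13.6, 9.83 and 9.41 FPKM against 4.44 to 8.25 FPKM (median 6.07), a log2 fold change of 0.93 with an adjusted p of 0.0563 in limma.

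Of 26 tested members of the ER list, 4 were called higher and 0 lower, and 18 were higher at a nominal p under 0.05 with 0 lower. Its median was 0.25 on the log2 scale, against −0.01 over all genes. The study reports protein folding as enriched in amygdala in Immo+FC against FC, and the list was chosen with earlier results of these data known. Its counts are therefore not independent evidence of its direction. Over all genes tested, 5.36% were higher and 7.75% lower at a nominal p under 0.05. The called shares were 0.118% higher and 0.0813% lower. The groups did not overlap for 2.56%, and the counts of the lists below can be read against these shares. For 10 of the 26 the Immo+FC libraries did not overlap the HC libraries. The list's score did not overlap either, and HC libraries 3 and 4 were the nearest to Immo+FC. Without Immo+FC libraries 1 and 2 together, 12 members had a nominal p under 0.05, and the median was 0.16. Without Immo+FC library 1, 2 or 3, or HC library 1, 2, 5 or 6, 0 members passed the threshold over all genes. In the fit of the 10 Immo+FC and HC libraries alone 0 passed as well. Without Immo+FC library 4, 8 passed, and without HC library 3 also 8.

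Some genes of this list hold a known letter pattern in their promoters. The list consists of ER chaperones and genes of the unfolded protein response, so the matches describe its promoters and not these libraries. The ER stress element, which Atf6 and the factor NF-Y bind, reads CCAAT, then 9 bases of any kind, then CCACG. It was sought on both strands in RefSeq windows of 300 bases around the start site (250 before and 50 after it), and 0.119% of all 32851 windows of GRCm38.p6 hold it. Among the 26 tested members, 21 have a window and 8 of them hold the element. These are Hspa5, Hsp90b1, Calr, Canx, Pdia6, Dnajc3, Creld2 and Syvn1, named for the match and not for their values. Their elements are shown because they are what these 8 promoters have in common, with the 2 conserved ends in capitals, read 5′ to 3′ on the strand that carries the pattern.
Hspa5, chr2:34772025-34772043, 47 bases before the RefSeq start: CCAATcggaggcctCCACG
Calr, chr8:84847075-84847093, 144 bases before the start, other strand: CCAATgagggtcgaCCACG
Canx, chr11:50325800-50325818, 127 bases before the start: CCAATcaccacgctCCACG
Pdia6, chr12:17266491-17266509, 80 bases before the start: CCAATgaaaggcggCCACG
Dnajc3, chr14:118937827-118937845, 87 bases before the start: CCAATcagcgccaaCCACG
Creld2, chr15:88819520-88819538, 108 bases before the start, other strand: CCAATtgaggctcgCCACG
Syvn1, chr19:6046532-6046550, 26 bases before the start: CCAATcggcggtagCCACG
Hsp90b1 holds 2 of them, 1 on each strand, and 185 bases upstream of its annotated gene on the minus strand, chr10:86705510-86705694, are given with both in capitals, the second in reverse.
Hsp90b1: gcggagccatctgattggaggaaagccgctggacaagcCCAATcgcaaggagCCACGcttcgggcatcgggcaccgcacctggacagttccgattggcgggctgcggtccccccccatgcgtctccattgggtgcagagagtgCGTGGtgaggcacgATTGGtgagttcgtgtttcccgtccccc

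Of the 8 genes with an element, Hspa5 was the one past the threshold. Creld2, a partner of ER disulfide isomerases, was at 14.5, 12.9, 13.2 and 11.3 FPKM in Immo+FC and 6.45 to 11.8 FPKM (median 7.53) in HC, a log2 fold change of 0.66 (adjusted p = 0.0749, limma). Dnajc3, a cochaperone of Hspa5, had 0.35 (adjusted p = 0.0714), Pdia6 0.36 (adjusted p = 0.144) and the lectin chaperone Calr 0.31 (adjusted p = 0.158). Hsp90b1, the ER form of Hsp90 with 2 elements, had 0.24 (adjusted p = 0.123), and the ubiquitin ligase Syvn1 0.15 (adjusted p = 0.317). Canx, the membrane-bound counterpart of Calr, was at 67.5, 70.4, 68.5 and 73.2 FPKM against 63.7 to 72.4 FPKM (median 68.1), a log2 fold change of 0.04 (adjusted p = 0.763). Of the other called genes of the list, Pdia4, Xbp1 and Herpud1 have a window without this exact pattern, which says only that these letters are not in it.

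Some glucocorticoid-induced genes and a Ras-like protein were among the most changed. Rasd1 is on chromosome 11 from 59963181 to 59964944. Its values were 3.92, 3.6, 4.04 and 2.82 FPKM in Immo+FC and 1.48 to 2.44 FPKM (median 2.01) in HC, without overlap, and the log2 fold change was 0.88 (SE 0.13, adjusted p = 0.0206, limma). Immo+FC library 4 had the lowest of the 4 values. Sult1a1, a sulfotransferase of phenols and amines, was at 4.33, 3.84, 3.76 and 3.86 FPKM against 2.03 to 3.36 FPKM (median 2.3), a log2 fold change of 0.69 (SE 0.12, adjusted p = 0.0339). Tsc22d3, which encodes GILZ, a classic target of the glucocorticoid receptor, was at 24.7, 20.6, 18.9 and 19.9 FPKM against 13.1 to 18.1 FPKM (median 14.3), a log2 fold change of 0.52 (SE 0.09, adjusted p = 0.0348). For Tsc22d3 the highest HC value came from HC library 3. Plin4, a coat protein of lipid droplets, was low in absolute terms. It was at 0.978, 1.28, 1.01 and 0.878 FPKM against 0.198 to 0.871 FPKM (median 0.287), a log2 fold change of 1.38 (SE 0.24, adjusted p = 0.0339), and here the lowest Immo+FC value of 0.878 FPKM was barely above HC library 3 at 0.871 FPKM.

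Of 24 tested glucocorticoid-induced genes, 3 were called higher and 0 lower, and 12 were higher at a nominal p under 0.05 with 0 lower. The median log2 fold change was 0.14, and 3 of the 24 were negative. Sgk1 had 0.10, Mt1 0.04 and Ddit4 −0.16, none of them at a nominal p under 0.05. Some members, such as Fkbp5 and Lcn2, are genes that the study names from these samples, so the list is not independent evidence of its direction. Gjb6, a connexin of astrocytes, was at 13, 13.5, 12.9 and 11.5 FPKM against 6.3 to 12 FPKM (median 8.77), a log2 fold change of 0.57 (adjusted p = 0.0776, limma), with 1 Immo+FC value inside the HC range. Fkbp5, a cochaperone that dampens the glucocorticoid receptor, was at 9.94, 10.1, 10.6 and 9.81 FPKM against 7.35 to 10.4 FPKM (median 8.35), a log2 fold change of 0.25 (adjusted p = 0.173). The 4 Fkbp5 values of Immo+FC were close together, and the highest HC library lay among them. The list's score was 0.06 to 0.36 in Immo+FC and −0.31 to 0.10 in HC, where HC library 3 was at 0.10 and the other 5 ran from −0.31 to −0.17. Without HC library 3 the number of genes past the threshold over all genes was 82, and without Immo+FC libraries 1 and 2 together 8 members of the list had a nominal p under 0.05. Of the receptors and peptides of the stress axis, 28 were tested and 0 passed, with 1 higher and 1 lower at a nominal p under 0.05. Crh, corticotropin-releasing hormone, was at 5.7, 3.52, 3.56 and 2.57 FPKM against 1.96 to 2.9 FPKM (median 2.42) (log2 fold change 0.58, adjusted p = 0.219), and its binding protein Crhbp at 16.2, 14.1, 17.6 and 19.9 FPKM against 19 to 20.1 FPKM (median 19.8) (log2 fold change −0.23, adjusted p = 0.251).

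The clock gene Per2, whose promoter responds both to the core clock and to glucocorticoids, was on chromosome 1 from 91415982 to 91459324. It was at 10.2, 11.1, 9.15 and 8.52 FPKM in Immo+FC and at 5.64 to 7.9 FPKM (median 6.13) in HC, a log2 fold change of 0.60 (SE 0.11, adjusted p = 0.0348, limma). The groups did not overlap, with the nearest values in Immo+FC library 4 and HC library 3. Of 21 tested clock genes, Per2 alone was called, and 8 were higher and 1 lower at a nominal p under 0.05 (median 0.12). The repressor Cry1 had a log2 fold change of 0.38 (adjusted p = 0.124), Nfil3, a repressor of D-box genes, 0.35 (adjusted p = 0.208) and the nuclear receptor Nr1d1 −0.19 (adjusted p = 0.201). Cry1 was at 6.66, 5.98, 4.76 and 4.72 FPKM against 3.57 to 4.84 FPKM (median 4.3), with Immo+FC libraries 1 and 2 above all HC libraries and 3 and 4 within them. Without Immo+FC library 2, 5 clock genes were higher at a nominal p under 0.05, and without Immo+FC libraries 1 and 2 together 1 was. Mice were killed 2 h after conditioning or at an equivalent time of day after handling.

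**Figure D3:**
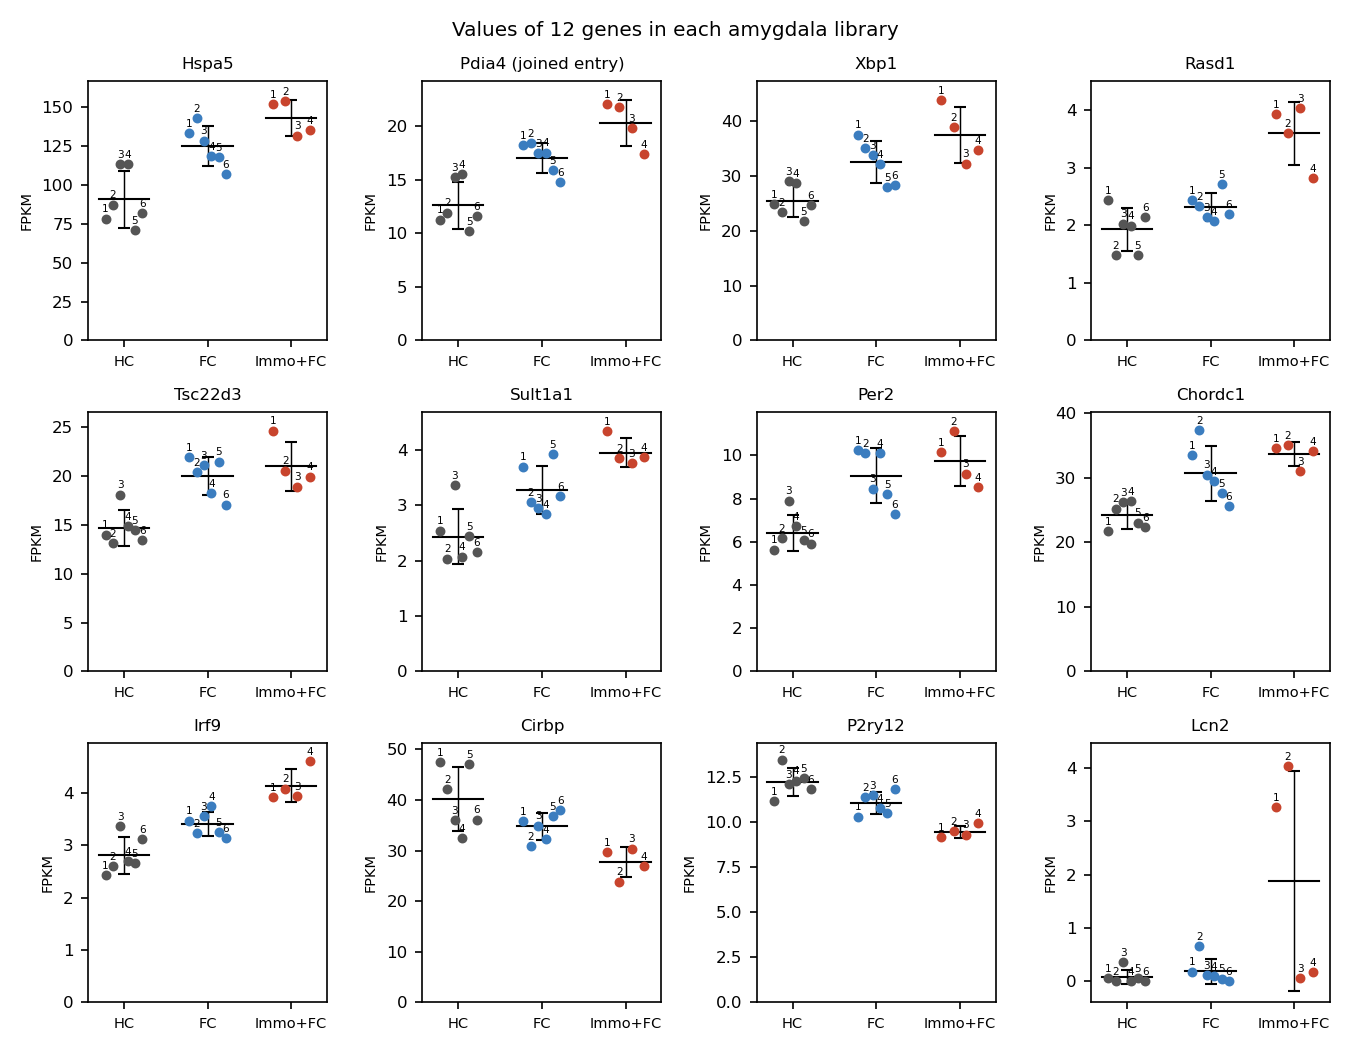
Levels (FPKM, vertical axes) of 12 genes in the amygdala pools of the 3 groups, 6 HC, 6 FC and 4 Immo+FC. Each numbered dot is 1 library, and a bar with whiskers gives the mean and SD of a group. For the first 11 genes the Immo+FC and HC libraries do not overlap, and for Lcn2 Immo+FC libraries 1 and 2 are at 3.27 and 4.04 FPKM while libraries 3 and 4 are among the HC values.

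Among proteins that respond to temperature and folding stress in the cytosol, Chordc1 rose and Cirbp fell. Chordc1, a cochaperone of Hsp90, was at 34.7, 35.1, 31.1 and 34.1 FPKM in Immo+FC and 21.8 to 26.4 FPKM (median 24.2) in HC. The groups lay apart, with a log2 fold change of 0.48 (SE 0.09, adjusted p = 0.0348, limma), from 24.2 ± 2.02 (SD, n = 6) to 33.8 ± 1.84 (SD, n = 4) FPKM. Of 28 tested heat shock proteins and cochaperones, Chordc1 was the one called, and 18 were higher and 0 lower at a nominal p under 0.05 (median 0.22). Hspb1, a small heat shock protein, was at 9.72, 6.86, 4.59 and 4.38 FPKM against 1.73 to 4.2 FPKM (median 2.59), a log2 fold change of 1.17 with an adjusted p of 0.0828. Immo+FC libraries 1 and 2 carried its high values. Stip1, which hands clients from Hsp70 to Hsp90, had 0.33 (adjusted p = 0.0838), and Fkbp4, an Hsp90 cochaperone of steroid receptors, 0.28 (adjusted p = 0.0909). Without Immo+FC libraries 1 and 2 together, 10 of the members had a nominal p under 0.05. The number of members past the threshold over all genes was 4 with Immo+FC library 4 dropped. It was 2 with HC library 3 dropped and 2 with HC library 4 dropped. It fell to 0 when Immo+FC libraries 1 to 3 were dropped in turn, and in the fit of the 10 Immo+FC and HC libraries alone. Dropping HC libraries 1, 2, 5 and 6 in turn also gave 0 each time, and so did FC libraries 3 and 4.

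A heat shock element, bound by Hsf1, was sought as GAA, 2 bases, TTC, 2 bases, GAA on both strands, and 0.603% of the 32851 windows hold it. Of the 28 members 27 stand alone in their table entries, 21 of these have a window, and 4 hold the element, Hsph1, Hspd1, Hspe1 and Chordc1. In Chordc1 3 overlapping matches run across the RefSeq start site, and in the promoter that Hspe1 and Hspd1 share 2 overlap. They are printed because Chordc1 is the called gene of the list, with the matching triplets in capitals.
Chordc1, chr9:18292263-18292285, plus strand: GAAcgTTCggGAAaaTTCctGAA
Hspe1 and Hspd1, chr1:55088059-55088076, plus strand: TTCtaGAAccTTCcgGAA

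Cirbp was at 29.8, 23.9, 30.4 and 26.9 FPKM in Immo+FC and 32.4 to 47.5 FPKM (median 39.1) in HC, a log2 fold change of −0.53 (SE 0.10, adjusted p = 0.0495, limma). Every Immo+FC value was below every HC value, although HC spread widely. Rbm3, the other protein induced by cooling, was at 19.3, 18.1, 23.1 and 25.7 FPKM against 24.1 to 38.1 FPKM (median 28.9), a log2 fold change of −0.44 (adjusted p = 0.124), and Immo+FC library 4 lay within the HC range. Srsf5, a splicing factor of the same temperature-dependent set, had −0.20 (adjusted p = 0.179) and Rbmx −0.08 (adjusted p = 0.617). Of these 4 genes, 1 was called lower and 3 were lower at a nominal p under 0.05, 1 without Immo+FC libraries 1 and 2 together. Rbm3 is a gene that the study names from these samples, so the 4 genes are not independent evidence of their direction. Body temperature is not among the data used here.

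No immediate early gene passed the threshold over all genes. Of 35 tested in limma, 12 were higher and 0 lower at a nominal p under 0.05, and the median was 0.25. The list's score was −0.02 to 0.23 in Immo+FC and −0.33 to 0.29 in HC, where HC library 6 lay above every Immo+FC library. Fosl2, a Fos family factor, was at 6.41, 6.6, 7.2 and 6.55 FPKM in Immo+FC and 4.15 to 6.18 FPKM (median 4.83) in HC, a log2 fold change of 0.42 (SE 0.09, adjusted p = 0.0749), without overlap. Fosb, whose protein lasts longer than Fos, was also without overlap, at 4.81, 4.81, 3.96 and 4.36 FPKM against 2.15 to 3.9 FPKM (median 2.8) (log2 fold change 0.61, adjusted p = 0.161). Homer1, a scaffold of metabotropic glutamate receptors with a short form induced by activity, was at 29.9, 39, 34.9 and 44.2 FPKM against 20.1 to 31.8 FPKM (median 26) (log2 fold change 0.52, adjusted p = 0.107). Egr3, which the study names, was at 29.8, 34.8, 28.7 and 30.7 FPKM against 21.4 to 28.3 FPKM (median 25.6) (log2 fold change 0.31, adjusted p = 0.225), and each Immo+FC library was above each HC library. Crem, which encodes the repressor ICER of the cyclic AMP response, had 0.36 (adjusted p = 0.107) and Egr1 0.53 (adjusted p = 0.247). The count of 12 was 5 without Immo+FC libraries 1 and 2 together and 6 without HC libraries 1 and 2 together.

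Irf9, the DNA-binding part of the complex that type I interferon activates, was on chromosome 14 from 55603571 to 55610030. Its values were 3.92, 4.08, 3.94 and 4.6 FPKM in Immo+FC and 2.43 to 3.36 FPKM (median 2.68) in HC, a log2 fold change of 0.55 (SE 0.09, adjusted p = 0.0206, limma). Immo+FC library 4 was highest, and the groups did not overlap. In GENCODE Irf9 overlaps Rnf31 on the same strand, and the share of reads from Rnf31 was not tested. Of 17 tested interferon response genes, Irf9 was the one called, and 6 were higher and 0 lower at a nominal p under 0.05 (median 0.17). Without Immo+FC library 4 these were 4 higher and 1 lower, with a median of 0.044. The list's score was 0.02, 0.17, −0.06 and 0.36 in Immo+FC libraries 1 to 4 and −0.17 to 0.004 in HC. Bst2, which tethers budding virus to the cell, was at 4.54, 3.49, 3.53 and 4.23 FPKM against 2.03 to 3.14 FPKM (median 2.53) (log2 fold change 0.61, adjusted p = 0.0719). Gbp2, an interferon-induced GTPase, had 0.43 (adjusted p = 0.174) and Ifitm3 0.35 (adjusted p = 0.149). The 8 other listed genes of the 25 did not reach the minimum of 0.5 FPKM.

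The acute phase genes Lcn2 and S100a9 were high in Immo+FC libraries 1 and 2 and did not pass the test. Lcn2, lipocalin 2 of the acute phase, was at 3.27, 4.04, 0.0575 and 0.169 FPKM in the 4 Immo+FC libraries and at 0 to 0.353 FPKM (median 0.0285) in HC, a log2 fold change of 2.55 (SE 0.82, adjusted p = 0.206, limma). Immo+FC libraries 3 and 4 were thus within the HC values. S100a9, a protein of neutrophils that also marks blood cells here, showed the same split, at 1.77, 1.99, 0.473 and 0.35 FPKM against 0 to 0.614 FPKM (median 0.235) (log2 fold change 1.75, adjusted p = 0.252). Thbd, thrombomodulin of the vessel wall, was above HC in each Immo+FC library, at 2.44, 2.96, 2.41 and 2.34 FPKM against 1.24 to 2.16 FPKM (median 1.57), a log2 fold change of 0.61 (SE 0.13, adjusted p = 0.0746). Cd14, a coreceptor for bacterial lipid, had 0.49 (adjusted p = 0.179) and the interleukin 1 receptor Il1r1 0.49 (adjusted p = 0.22). Lbp, which binds bacterial lipid and is also a choroid plexus marker, was at 2.39, 2.51, 1.91 and 0.436 FPKM against 0.0476 to 2.76 FPKM (median 0.532) (log2 fold change 1.56, adjusted p = 0.526). Of 18 tested members of the list 0 were called, and 7 were higher and 0 lower at a nominal p under 0.05 (median 0.24). The 7 were 4 without Immo+FC library 2 and 2 without Immo+FC libraries 1 and 2 together. Of the 17 blood cell markers 5 were tested, with a median of 0.65. The 11 with deposited values summed to 5.64 to 16.3 FPKM in Immo+FC and 5.43 to 21.8 FPKM in HC. The part of blood cells in these values was not tested. The median of the tested markers was −0.12 without Immo+FC library 1. Their score was 1.11 and 0.82 in Immo+FC libraries 1 and 2, 0.21 and −0.28 in libraries 3 and 4 and −0.82 to 0.34 in HC. The score of the inflammation list was 0.60 and 0.74 in Immo+FC libraries 1 and 2, 0.18 and −0.02 in libraries 3 and 4 and −0.49 to 0.12 in HC.

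The remaining genes called higher belong to several functions. P4ha1, the catalytic subunit of collagen prolyl hydroxylase and a target of the hypoxia factor HIF, was at 13.6, 12.8, 10.9 and 9.97 FPKM in Immo+FC and 6.95 to 9.32 FPKM (median 7.86) in HC, a log2 fold change of 0.55 (SE 0.11, adjusted p = 0.0495, limma). Of 17 tested hypoxia genes it was the one called, with 4 higher and 2 lower at a nominal p under 0.05 (median 0.01). The glycolytic regulator Pfkfb3 had 0.37 (adjusted p = 0.12) and Vegfa −0.14 (adjusted p = 0.159), and both had no overlap between groups. Ndrg1 had 0.32 (adjusted p = 0.213). Lonrf3, a protein with ring finger domains, was at 2.65, 3.45, 2.68 and 2.74 FPKM against 1.67 to 2.37 FPKM (median 1.86) (log2 fold change 0.54, adjusted p = 0.0339). Outside the rule for named genes, and named because they complete the 27, are Tra2a, a splicing regulator that also stands in a table of the study, and Snx1, a sorting nexin of endosomes. Tra2a was at 49.2, 42.5, 44.5 and 44.1 FPKM against 30.3 to 37.1 FPKM (median 34.9) (log2 fold change 0.39, adjusted p = 0.0339) and Snx1 at 25.3, 25.3, 26.1 and 26.1 FPKM against 20.9 to 23.3 FPKM (median 22.6) (log2 fold change 0.20, adjusted p = 0.0339). For Snx1 the change was small and the 4 Immo+FC values spanned less than 1 FPKM.

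One called entry joins the noncoding RNA A330023F24Rik with the microRNA genes Mir29b-2 and Mir29c, which lie in it on chromosome 1. It was at 17.4, 18.3, 20.1 and 17.4 FPKM in Immo+FC and 14.1 to 16.2 FPKM (median 15.2) in HC, a log2 fold change of 0.27 (SE 0.05, adjusted p = 0.0447, limma). The libraries were made from poly-A RNA, so the value is that of the long host transcript and the mature microRNAs were not measured. The mature forms of the main arm are shown, from RefSeq on GRCm38.p6, because both carry the same seed (bases 2 to 8, in capitals).
miR-29b-3p, chr1:195037091-195037113: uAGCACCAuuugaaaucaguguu
miR-29c-3p, chr1:195037600-195037621: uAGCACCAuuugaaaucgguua

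The 11 lower genes were led by Tcta, which had the smallest p of all genes. Tcta was at 11.7, 13.1, 11.9 and 13.4 FPKM in Immo+FC and 15.4 to 17.4 FPKM (median 16.2) in HC, a log2 fold change of −0.38 (SE 0.05, adjusted p = 0.0206, limma). P2ry12, on chromosome 3 from 59216272 to 59262871, was at 9.16, 9.47, 9.29 and 9.92 FPKM against 11.1 to 13.4 FPKM (median 12.2), a log2 fold change of −0.36 (SE 0.05, adjusted p = 0.0206). Both groups were tight for P2ry12, and they did not overlap. Pnpla3, a lipase of lipid droplets, was at 2.5, 2.67, 2.92 and 2.84 FPKM against 3.5 to 3.68 FPKM (median 3.62) (log2 fold change −0.39, adjusted p = 0.0305), with the 6 HC values almost alike. Nxpe4 had the lowest log2 fold change of the 11, −0.63 (adjusted p = 0.0364), at 1.79, 2.09, 2.84 and 2.85 FPKM against 3.23 to 4.19 FPKM (median 3.69). The zinc finger gene Zfp46 had −0.50 (adjusted p = 0.0348), Cd276, an immune checkpoint ligand, −0.38 (adjusted p = 0.0416), and Mri1, an enzyme of methionine salvage, −0.37 (adjusted p = 0.0424). Ilvbl had −0.30 (adjusted p = 0.0495), Sprn, a neuronal relative of the prion protein, −0.22 (adjusted p = 0.0416), and Rae1, a factor of mRNA export outside the rule for named genes, −0.20 (adjusted p = 0.0495). For each of these 6 genes the 4 Immo+FC values lay below the 6 HC values. Of the 25 called genes with a single symbol, 12 overlap another annotated gene in GENCODE. For 6 of them a partner is a coding gene on the other strand. These are Tcta with Rhoa, P2ry12 with Med12l, Sult1a1 with Ccdc101, Plin4 with Hdgfrp2, Nxpe4 with Nxpe2 and Sprn with Mtg1. Irf9 overlaps Rnf31 on the same strand. The share of reads from these partners was not tested.

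P2ry12 was the one called microglial marker. Of 14 tested, 1 was called lower, 3 were lower and 0 higher at a nominal p under 0.05, and the median was −0.05. In bulk tissue, fewer cells of a type and less RNA per cell cannot be told apart. Cx3cr1, the fractalkine receptor, was at 8.45, 9.96, 9.98 and 9.22 FPKM against 9.68 to 12 FPKM (median 11) (log2 fold change −0.22, adjusted p = 0.161, limma), and Siglech at 4.19, 4.74, 4.13 and 4.57 FPKM against 4.29 to 5.99 FPKM (median 5.66) (log2 fold change −0.29, adjusted p = 0.18). Tmem119, another marker of resident microglia, had 0.16 (adjusted p = 0.453), with HC at 6.19 to 9.06 FPKM (median 7.26) and Immo+FC at 8.81, 8.05, 7.88 and 8.11 FPKM. The summed level of the list was 199 to 220.4 FPKM in Immo+FC, within the 183 to 234 FPKM of HC. Of 19 tested markers of endothelial and mural cells 0 were called, and 5 were higher and 4 lower at a nominal p under 0.05. Pdgfrb of pericytes had −0.37 (adjusted p = 0.0719) and the transporter Slco1a4 −0.32 (adjusted p = 0.121), both without overlap, while Ly6c1 had 0.38 (adjusted p = 0.0836) and Tagln of smooth muscle 0.50 (adjusted p = 0.195). Of 13 astrocyte markers 0 were called and Gjb6 alone had a nominal p under 0.05. Of 12 tested markers of leptomeninges, 3 were higher at a nominal p under 0.05, Ptgds (0.93), Ogn (1.10) and Col1a2 (0.48), with adjusted p-values of 0.18, 0.231 and 0.339, and their highest values were in Immo+FC library 2.

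Genes of synapses and excitability held no called gene. Of 39 learning and memory genes 0 were called, and 1 was higher and 5 lower at a nominal p under 0.05 (median −0.04). Calb1, a calcium buffer of interneurons and projection neurons, was at 39.8, 38.1, 48.7 and 56.6 FPKM in Immo+FC and 48.1 to 62.7 FPKM (median 58.3) in HC (log2 fold change −0.34, adjusted p = 0.172, limma). Adcy8, an adenylyl cyclase that calcium stimulates, had −0.35 (adjusted p = 0.249). Of 24 glutamate receptor genes 0 were called and 2 were lower at a nominal p under 0.05, the NMDA receptor subunit Grin3a (−0.34, adjusted p = 0.245) and the AMPA receptor subunit Gria3 (−0.20, adjusted p = 0.292). Of 14 GABA receptor genes 3 were lower at this level, among them Gabrb2 (−0.16, adjusted p = 0.316) and Gabra3 (−0.19, adjusted p = 0.317). Of 37 channel genes 2 were lower, Cacna2d1 (−0.25) and Cacna1b (−0.15), and of 26 presynaptic genes 2 were lower, among them Syn2 (−0.13). These shares can be read against the 7.75% of all genes that were lower at this level. With each library left out in turn, the lower genes numbered 0 to 3 among channels, 0 to 5 among presynaptic genes, 0 to 7 among GABA receptors and 0 to 4 among glutamate receptors. Of 22 aminergic receptors the serotonin receptors Htr3a (−0.31, adjusted p = 0.171) and Htr2c (−0.28, adjusted p = 0.239) were lower at a nominal p under 0.05. Htr3a, the serotonin-gated channel of interneurons, was at 2.74, 2.91, 3.61 and 3.6 FPKM against 3.62 to 4.65 FPKM (median 3.94), just without overlap. Of 24 cholesterol genes 3 were lower at a nominal p under 0.05, among them Insig1 (−0.25, adjusted p = 0.231) and Stard4 (−0.23, adjusted p = 0.307), and 1 was higher, Soat1, which stores cholesterol as ester (0.18, adjusted p = 0.349).

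Other lists held no called gene either. Of 77 ribosomal protein genes 72 had a positive log2 fold change, 6 of them at a nominal p under 0.05, and the median was 0.07. With each library left out in turn, the number at a nominal p under 0.05 ran from 0, without Immo+FC library 1, to 25. Of 71 nuclear-encoded genes of oxidative phosphorylation 1 was higher at a nominal p under 0.05 (median 0.06), with 0 to 9 and medians of −0.008 to 0.086 when each library was left out in turn, and of 31 proteasome subunits 0 were (median 0.00). Of 30 tested chromatin remodelers and acetyltransferases 3 were lower and 0 higher at this level, with a median of −0.02. Of 13 cell division genes 2 were higher, of 13 young neuron genes 1 was lower, and of 16 genes of the growth hormone and IGF axis 2 were higher at this level. Over all genes tested, 5.36% were higher and 7.75% lower at this level. The 9 nuclear and imprinted noncoding RNAs, 12 markers of GABAergic neurons, 8 of hypothalamus and thalamus and 1 of the pituitary had 0 genes at it in either direction, and 17 oligodendrocyte markers had 2 lower. From a fixed list of genes drawn from the study, which does not hold every gene it names, further members were Drd2, the dopamine D2 receptor (0.60, adjusted p = 0.65), Igf2 (0.68, adjusted p = 0.617), the serotonin receptor Htr2a (0.24, adjusted p = 0.72), the glutamate receptor Grm2 (−0.12, adjusted p = 0.765), Trhr, the receptor of thyrotropin-releasing hormone (−0.47, adjusted p = 0.47) and Clock (0.13, adjusted p = 0.685). None of these passed. The study reported them for Immo+FC against FC with Cuffdiff and not against HC, so the values here do not retest its result. The other 17 tested genes of that list, Dmxl2, Erdr1, Pde7b, Trps1, Fgd4, Cers6, Lyst, Lnpep, Endou, Cdk5rap2, Nr4a1, Dnajb14, Dusp1, C1ql3, Myo5a, Pbrm1 and Sorl1, had log2 fold changes from −0.48 (Erdr1) to 0.61 (Lnpep), and the smallest unadjusted p among these 17 was 0.0637 for C1ql3. Drd2 was at 10.9, 11.3, 14.3 and 4.69 FPKM against 3.21 to 13.7 FPKM (median 5.6). Ttr, the main transcript of choroid plexus, was at 941, 726, 614 and 109 FPKM against 0.837 to 1027 FPKM (median 148), a range that left its log2 fold change of 3.98 with an SE of 2.24. Gh, growth hormone, did not reach the minimum.

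**Figure D4:**
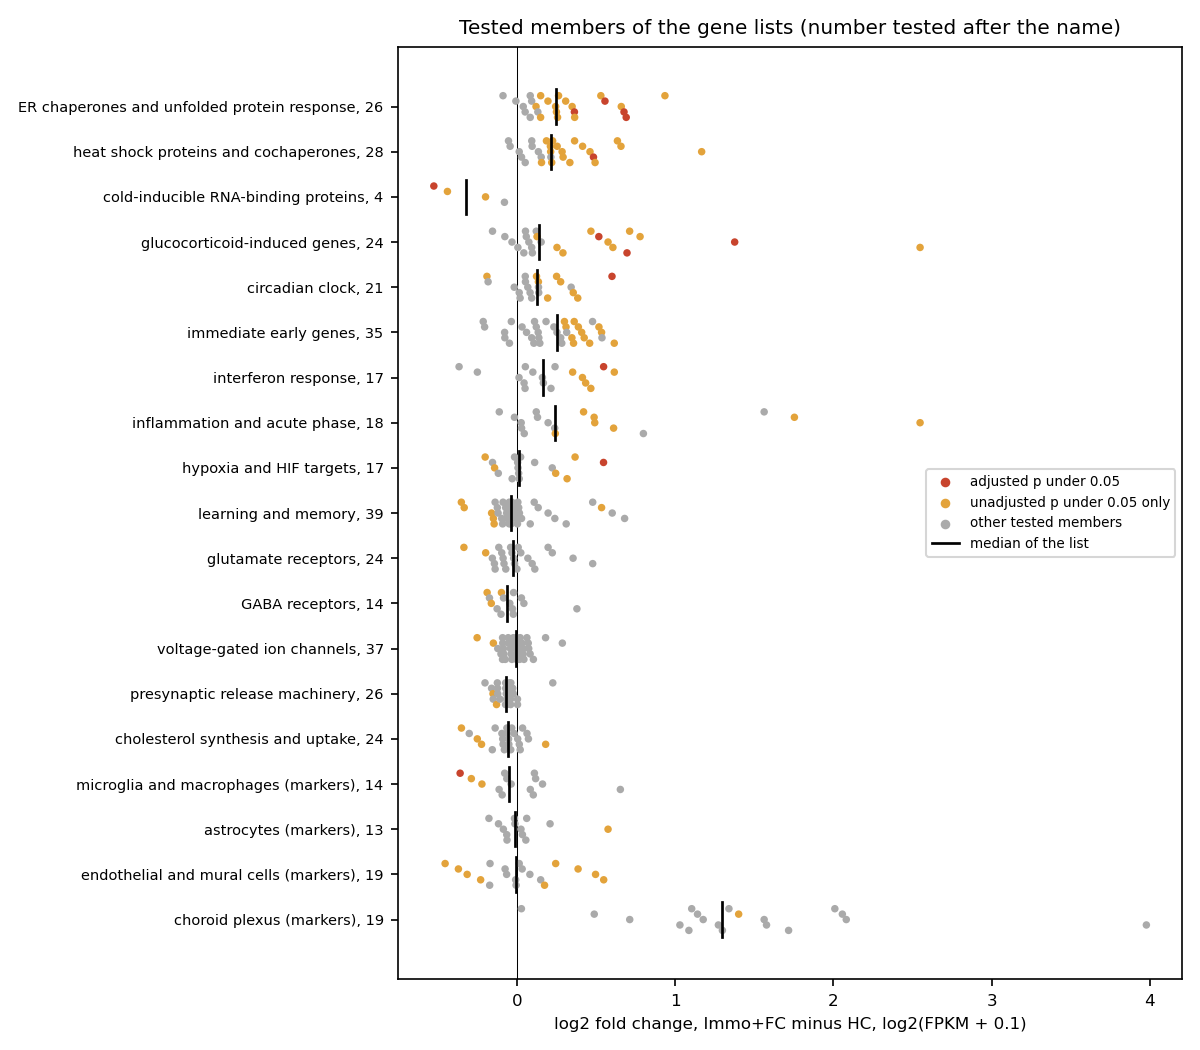
Log2 fold changes, Immo+FC (n = 4 libraries) minus HC (n = 6 libraries), of the tested members of 19 gene lists, on the log2(FPKM + 0.1) scale. Each dot is a gene, coloured by limma's adjusted and unadjusted p, and the bar is the median of the list. The medians of ER chaperones (0.25), heat shock proteins (0.22) and immediate early genes (0.25) lie above 0 and that of the cold-inducible proteins (−0.32) below it, while the choroid plexus markers spread widely around 1.3.

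Transcript length was examined because long transcripts differ between some of these libraries. Of 331 tested genes with a longest transcript over 10 kb, 4 were higher and 14 lower at a nominal p under 0.05, shares of 1.21% and 4.23%, and their median was −0.005. Genes under 2 kb had 178 higher and 125 lower of 2723, shares of 6.54% and 4.59%, with a median of 0.02. From 2 to 4 kb 6.18% were higher and 8.54% lower. From 4 to 6 kb the shares were 4.80% and 9.34%, from 6 to 8 kb 2.61% and 8.83%, and from 8 to 10 kb 2.12% and 5.08%. The share of higher genes thus fell with each step in length. The 25 called genes with a length had a median of 2911 bases, against 3432 bases over all tested genes. The score of the long transcripts was low in HC libraries 1 and 2 (−0.18 and −0.13) and in Immo+FC library 1 (−0.22) and 0.20 to 0.25 in the other 7 libraries of both groups. With this score as a covariate 39 genes passed, with the 27 among them.

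Levels in FC, conditioned without immobilization, are given for the leading genes. Hspa5 was at 107 to 143 FPKM in the 6 FC libraries, Xbp1 at 27.9 to 37.5 FPKM, Rasd1 at 2.08 to 2.72 FPKM, Tsc22d3 at 17.1 to 21.9 FPKM, Per2 at 7.28 to 10.3 FPKM, Cirbp at 30.9 to 38 FPKM and P2ry12 at 10.3 to 11.8 FPKM. Since both conditioned groups are set against the same HC libraries, the values are given side by side and not compared by overlap. Tested directly, Immo+FC against FC called 3 of the 13534 genes (0.0222%), none of them among the 27. The score of transcripts over 10 kb was −0.32 to −0.09 in FC, and its part in the differences from FC was not tested. At a nominal p under 0.05, 1424 genes differed from FC (10.5%), and 15 of the 27 did. The 27 were chosen by the same 4 Immo+FC libraries, so their count against FC is a description. Rasd1 had a log2 difference from FC of 0.61 (adjusted p = 0.157, limma), Irf9 0.28 (adjusted p = 0.24), Tcta −0.22 (adjusted p = 0.168), P2ry12 −0.22 (adjusted p = 0.168) and Cirbp −0.33 (adjusted p = 0.248). For Hspa5 the difference was 0.20 (adjusted p = 0.575), for Per2 0.11 (adjusted p = 0.778), for Tsc22d3 0.07 (adjusted p = 0.845) and for Fosl2 0.01 (adjusted p = 0.987). Thbd, which was at 1.25 to 1.92 FPKM in FC, had 0.64 (adjusted p = 0.157).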

How the data were processed

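Poly-A RNA of amygdala punches, pooled from 2 mice per library, was sequenced by the authors, who mapped reads with STAR 2.3 to mm10 and computed FPKM with Cufflinks and Cuffdiff 2.1.1. The deposited FPKM values were used as given, and the authors' deposited count columns of sequences and mapped reads describe depth, with mean mapped lengths beside them. The sources used here do not state whether counting used strand, and depth behind an FPKM value is not recoverable from these files. The table joins overlapping genes in 272 of 23303 entries, and 0 per-sample columns were left unmapped. The punches were 1 mm wide and centred on the basolateral nucleus, so neighbouring nuclei may be included.

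Values were taken as log2(FPKM + 0.1), entries that averaged 0.5 FPKM or more in the 10 Immo+FC and HC libraries were kept, and 1 model of the 16 amygdala libraries was fitted with limma 3.58.1 in R 4.3.3 (empirical Bayes with a trend), with Benjamini-Hochberg adjustment over all entries tested and two-sided p-values. Replicates are pools of different mice as far as the labels and methods say, and p-values measure the spread between pools.

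Genes named were the 10 with the most positive and the 10 with the most negative change among called single-gene entries that averaged 1 FPKM or more and whose groups did not overlap, called joined entries, up to 4 members with the smallest p of each list, and a fixed list of genes drawn from the study, which leaves out some that it names. Tra2a, Snx1 and Rae1 were named after their values were seen, and genes bearing a promoter motif for the motif. Members and lists were chosen with earlier results of these data known. Positions and overlaps come from GENCODE, and sequences from RefSeq on GRCm38.p6. Alternatives changed the pseudocount, minimum, scaling, libraries, weights, block and covariates. Some members of the lists are counted but not reported here by name.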

Additional observations from a re-analysis of the deposited data

Results flagged for a closer look

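Among 208 groups of values examined (104 genes in the HC and the Immo+FC libraries), 11 held a library far from the rest by Dixon's criterion, which chance flags in about 1 in 20 groups. HC library 3 stood high for Plin4 (0.871 FPKM), Tsc22d3 (18.1 FPKM) and Lcn2 (0.353 FPKM). Immo+FC library 2 stood high for Lonrf3 (3.45 FPKM) and Thbd (2.96 FPKM) and low for Grm2 (7.89 FPKM). HC library 1 was high for Ptgds (156 FPKM), HC library 5 for Slco1a4 (10.9 FPKM) and HC library 6 for Pdgfrb (3.97 FPKM). HC library 2 was low for Cacna1b (18.7 FPKM), and Immo+FC library 1 was low for Clock (6.68 FPKM).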

How the results depend on the processing

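The number of genes past the threshold was 27 in limma. It was 6 with no minimum, 16 with array weights and 0 in a fit of the 10 Immo+FC and HC libraries alone. It was 0 without Immo+FC libraries 1 and 2 together (924 genes at an unadjusted p under 0.05) and 2 without HC libraries 1 and 2 together. With the choroid plexus and striatal scores as covariates it was 1, and in 2 fits chosen after seeing the data it was 47 with the choroid plexus score and 12 with the striatal score. With each of the 16 libraries left out in turn it ran from 0 to 148. The cause of these changes was not tested. Over 32 alternatives the 27 genes had 863 values, of which 396 kept their direction and passed, 467 kept their direction and did not pass, and 0 reversed. The groups of these genes do not overlap, so fits that only leave out libraries could not reverse them.

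With the replicate block 0 genes passed and 1479 had an unadjusted p under 0.05. Samples of the same number correlated in their deviations at 0.213, 0.0035, −0.14 and 0.321. The HC library that Immo+FC libraries 1 to 4 matched best was HC 1, HC 3, HC 2 and HC 4. Immo+FC libraries 1 and 4 thus matched their own number, and the values do not settle whether the numbers pair the samples. The labels and methods do not say that they do, and the main fit used no block.

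Values that changed sign were not past the threshold in any of the fits. Rbmx was at 0.013 and Grm2 at 0.019 without Immo+FC libraries 1 and 2 together, Igf2 at −0.18 with both scores and −0.12 with the choroid plexus score, and Clock at −0.026 without HC libraries 1 and 2 together. With single libraries left out Grm2 ran from −0.18 to 0.021.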
